A study of Mus musculus with 48 samples.

Results

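The genes described here are 10 genes of the endoplasmic reticulum (ER) that are induced by the unfolded protein response, most of them chaperones and folding factors, namely Hspa5, Hsp90b1, Dnajb9, Sdf2l1, Xbp1, Herpud1, Creld2, Pdia4, Hyou1 and Calr. They were chosen by name, as every non-control probe annotated to one of these symbols, and they are 10 of the 37074 gene names on the array and 10 of the 20486 genes that were tested. Livers came from male mice in which p110α, the insulin-activated catalytic subunit of phosphoinositide 3-kinase encoded by Pik3ca, was deleted in hepatocytes through Cre driven by the albumin promoter (p110αhep-/-, LKO), and from floxed littermates without Cre (p110αhep+/+, LWT). From 12 weeks of age the mice ate a control diet (CTRL) or a high-fat diet with 60% of its calories from fat (HFD) for 12 weeks, and at ZT16, in the dark phase, they were either fed (FED) or had been fasted for 24 h (FASTED). Genotype, diet and nutritional status were crossed into 8 groups of 6 mice with 1 array of whole liver RNA per mouse, and all groups carry the floxed allele.

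Secreted and membrane proteins fold in the ER, where the Hsp70 chaperone BiP, the product of Hspa5, binds unfolded chains with the help of J-domain cofactors, a nucleotide exchange factor, the Hsp90 relative GRP94, protein disulphide isomerases and the lectin calreticulin. When unfolded chains accumulate, the sensors IRE1, PERK and ATF6 start the unfolded protein response, in which cleaved ATF6 and spliced XBP1 bind ER stress response elements in the promoters of chaperone genes. The hepatocyte is a professional secretory cell with abundant ER, and the response is known in liver for its link to feeding, insulin and lipid handling.

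The promoters show what several of these genes share in sequence. RefSeq promoters of the build GRCm38.p6 were found for 9 of the 10 genes, with Hyou1 not matched, and the 250 bases before each start site were searched on both strands for the ER stress response element ERSE, spelled CCAAT, 9 free bases and CCACG, for ERSE-II, spelled ATTGG, 1 free base and CCACG, and for the XBP1 element UPRE, spelled TGACGTGG. ERSE was found in 4 of 9, against 35 of 27025 promoters of all genes (0.13%), and ERSE-II in 1 of 9, against 10 of 27025 (0.037%). UPRE was found in 0 of 9, against 163 of 27025 (0.603%). In none of these 9 promoters did matches overlap. The matching stretches follow in the 5′ to 3′ direction of each gene, with the fixed letters of the motif in capitals. A match on the opposite strand reads CGTGG, 9 free bases and ATTGG.
Hspa5, chr2:34772010-34772058, plus strand, ERSE: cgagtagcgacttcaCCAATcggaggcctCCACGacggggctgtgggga
Hsp90b1, chr10:86705518-86705671, minus strand, ERSE on each strand: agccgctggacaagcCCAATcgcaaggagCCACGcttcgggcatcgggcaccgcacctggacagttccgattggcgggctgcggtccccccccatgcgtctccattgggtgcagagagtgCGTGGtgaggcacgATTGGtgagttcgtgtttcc
Creld2, chr15:88819505-88819553, plus strand, ERSE on the opposite strand: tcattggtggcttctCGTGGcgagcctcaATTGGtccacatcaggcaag
Calr, chr8:84847060-84847108, minus strand, ERSE on the opposite strand: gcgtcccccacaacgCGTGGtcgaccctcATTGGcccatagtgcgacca
Herpud1, chr8:94386362-94386402, plus strand, ERSE-II: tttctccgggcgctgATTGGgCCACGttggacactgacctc
The Hspa5 match lay 65 to 47 bases before the start site and the Herpud1 match 52 to 42 bases before it. These are matches of letters and not measured binding, and a gene without a match only lacks these letters in this window.

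The arrays were of even quality. Between 50.1% and 57.4% of probes per array were well above background, no array had a saturated spot, and each group was spread over 2 wash batches with 3 mice in each. All 19 probes for the 10 genes were well above background on all 48 arrays. The 7 hepatocyte markers on the array, Alb among them, were also well above background on all 48 arrays. The targeted gene, Pik3ca, was called higher in LKO than in LWT mice in 3 of 4 states by limma, by 0.39 (log2, adjusted p = 0.000402) in fed mice on CTRL, 0.58 (adjusted p = 2.79e-07) in fed mice on HFD and 0.25 (adjusted p = 0.0177) in fasted mice on HFD. In fasted mice on CTRL the difference was 0.07 (adjusted p = 0.534). Only part of the gene was deleted and the place of the probe relative to that part was not determined here, so this signal does not check the deletion. In whole liver RNA, fewer cells of a type and less RNA per cell cannot be told apart.

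All 10 genes were measured in every mouse, and most were lowest in fasted LKO mice on CTRL. This group had the lowest mean signal of the 8 groups for 7 of the genes (Hspa5, Hsp90b1, Sdf2l1, Creld2, Pdia4, Hyou1 and Calr), while Xbp1 and Dnajb9 were lowest in fasted LWT mice on CTRL and Herpud1 in fed LWT mice on CTRL. The means spanned 0.57 (log2) for Hsp90b1 and 2.20 for Sdf2l1 between the lowest and the highest group. When the 8 means of a gene were put in order, neighbouring groups were seldom called different. Of the 7 neighbouring pairs of each gene, a pair passed the test below only for Herpud1, where fasted LKO on HFD stood above fasted LWT on HFD, and for Calr, where fasted LWT on CTRL stood above fasted LKO on CTRL. Signals are log2 values of the brightest probe of a gene after quantile normalization, and they can be compared between mice but not between genes.

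**Figure D1:**
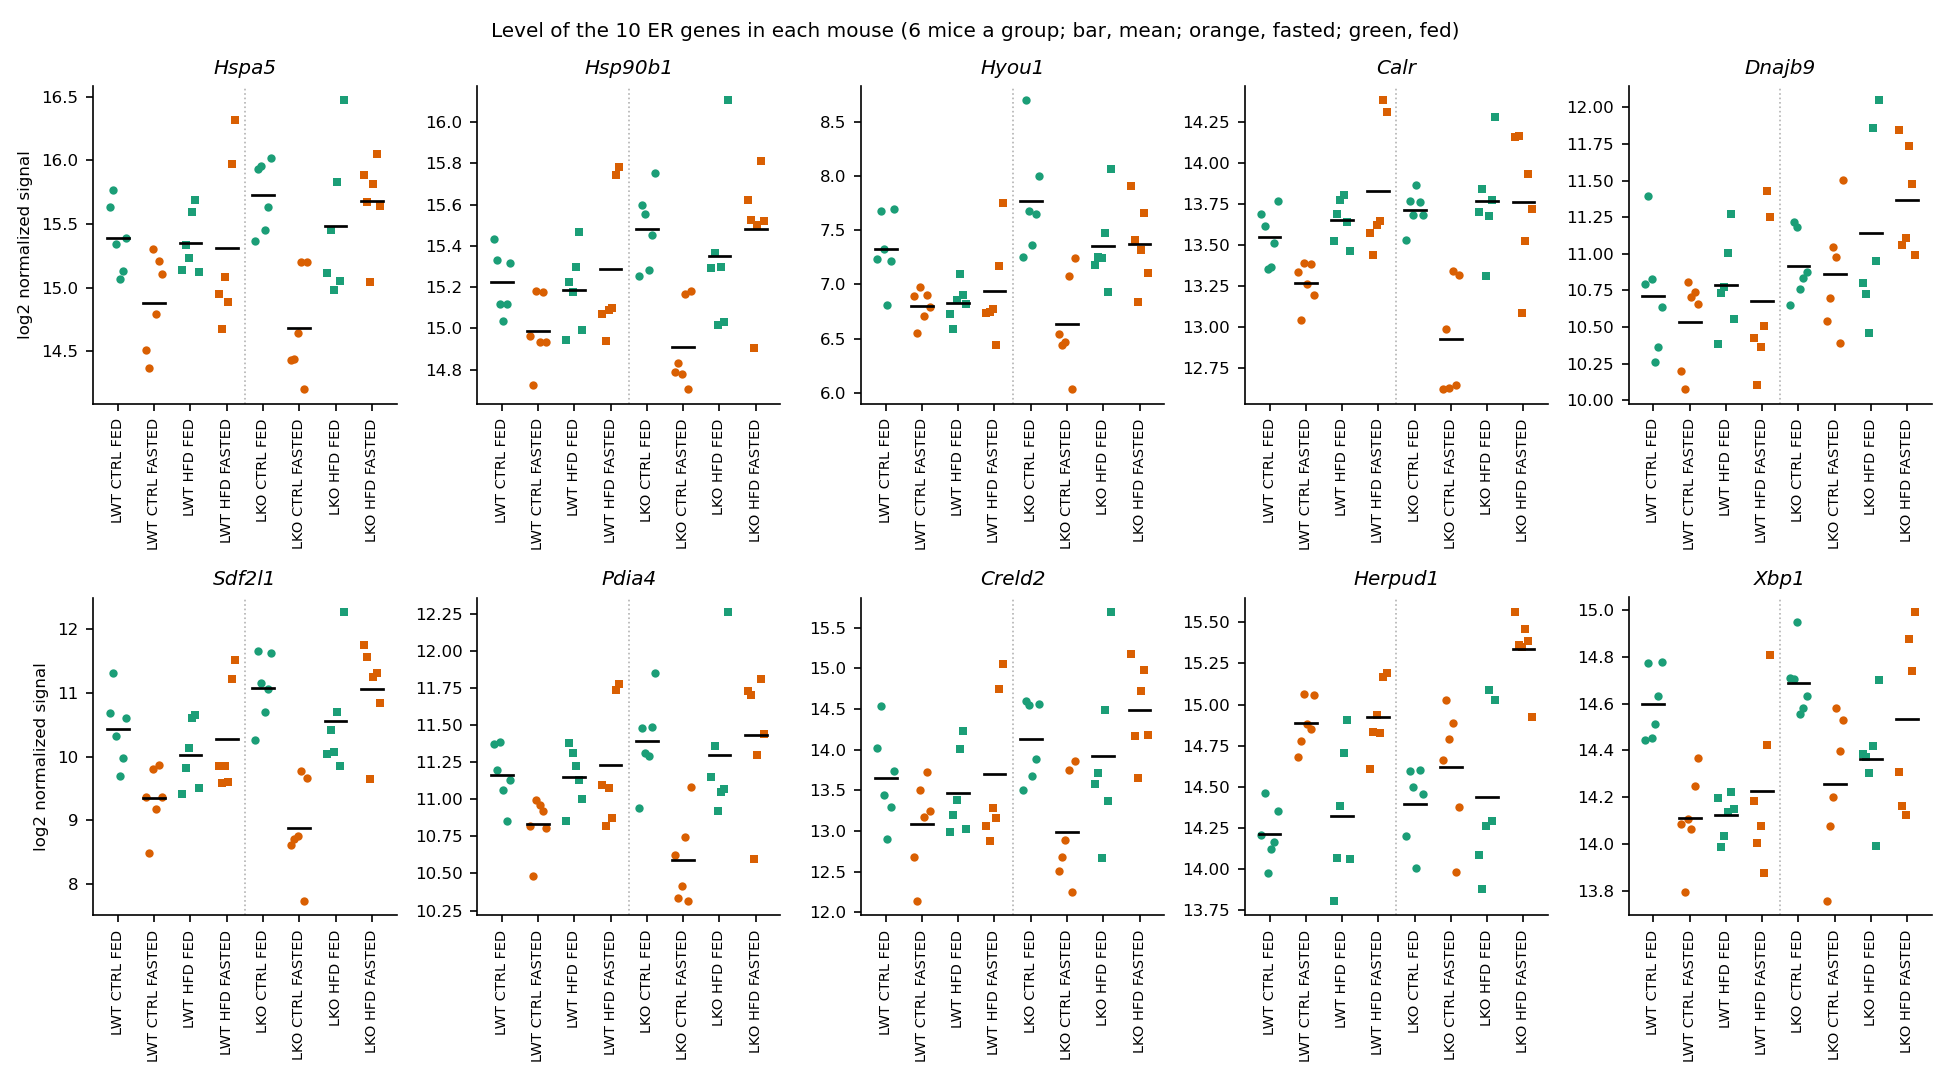
Log2 normalized signal (vertical axis) of the 10 ER genes in each of 48 mice, by group (horizontal axis, 6 mice each), with orange for fasted, green for fed, squares for HFD, circles for CTRL and a bar at the group mean. Sdf2l1 runs from 7.74 in a fasted LKO mouse on CTRL to 12.27 in a fed LKO mouse on HFD, and the fasted LKO mice on CTRL lie low in most panels.

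Fasting lowered most of the ER chaperones in LKO mice on CTRL. The test was limma's moderated test on the 8 group means, with adjustment over all probes and a call at an adjusted p of at most 0.05. Here 8 of the 10 genes fell and none rose, where 35.6% of all genes tested were called and 19.2% were called lower. The median difference between fasted and fed mice was -0.81 (log2) over the 10 genes and -0.0012 over all genes.

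Sdf2l1, a partner of J-domain proteins at BiP, fell the most. Its lowest, median and highest signals were 10.26, 11.11 and 11.65 in fed LKO mice and 7.74, 8.74 and 9.78 in fasted LKO mice, so the groups did not overlap. The difference was -2.16 (SE 0.36, adjusted p = 5.78e-06), a 4.46-fold lower signal. Hspa5, which encodes BiP, gave 15.37, 15.78 and 16.02 in the fed and 14.20, 14.54 and 15.20 in the fasted LKO mice. These groups also stood apart, with a difference of -1.06 (SE 0.22, adjusted p = 0.000178), or 2.09-fold. Hyou1, the large Hsp70 relative that exchanges nucleotide on BiP, gave 7.25, 7.66 and 8.69 in fed and 6.03, 6.50 and 7.24 in fasted LKO mice, with no overlap and a difference of -1.09 (SE 0.19).

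The lectin chaperone and the Hsp90 relative followed. Calr, calreticulin, had a lowest signal of 13.53, a median of 13.72 and a highest of 13.86 in fed LKO mice, against 12.62, 12.82 and 13.34 in the fasted ones, and fell by 0.81 (SE 0.15). Hsp90b1, GRP94, gave 15.25, 15.50 and 15.75 in the fed and 14.71, 14.81 and 15.18 in the fasted mice, a difference of -0.59 (SE 0.14). In both genes every fasted mouse lay below every fed mouse. Together with Sdf2l1, Hspa5 and Hyou1, 5 of the 10 genes had no overlap between the groups, where 15.6% of all genes had none and in 8.41% the fasted mice were the lower ones.

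In the remaining called genes the groups overlapped. Creld2, an ER protein with disulphide isomerase activity, gave 13.50, 14.22 and 14.60 in fed and 12.25, 12.78 and 13.86 in fasted LKO mice (difference -1.18, SE 0.36, adjusted p = 0.00812). Pdia4, a disulphide isomerase, gave 10.94, 11.40 and 11.85 in fed and 10.32, 10.52 and 11.08 in fasted LKO mice (difference -0.81, SE 0.17). For Xbp1 the range was 14.56 to 14.95 in fed and 13.76 to 14.58 in fasted LKO mice (difference -0.50, SE 0.14), and these arrays do not tell spliced from unspliced Xbp1 mRNA. A pair of genes did not pass. Dnajb9, a J-domain cofactor of BiP, differed by -0.10 (95% interval -0.53 to 0.33), and Herpud1, a membrane protein of ER-associated degradation, by 0.29 (95% interval -0.04 to 0.63).

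The fall was seen in both wash batches. Within batch 1 the median difference of the 10 genes was -0.92 and within batch 2 it was -0.82, and the 8 called genes kept their sign in both, with 8 called in batch 1 alone and 4 in batch 2 alone. Leaving out any 1 of the 48 arrays left these 8 genes called.

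In LWT mice on CTRL, fasting called fewer of these genes, and 9 of the 10 differences were below 0, with a median of -0.38. Of the 10, Sdf2l1 (-0.98, SE 0.35), Hyou1 (-0.50, SE 0.19) and Xbp1 (-0.46, SE 0.13) fell and Herpud1 rose (0.72, SE 0.16), where 32.6% of all genes were called and 16.6% were called lower. Sdf2l1 ranged from 9.70 to 11.32 in fed and from 8.49 to 9.87 in fasted LWT mice, so those groups overlapped. Xbp1 and Herpud1 did not overlap between fed and fasted LWT mice, where 11.8% of all genes had no overlap. Hspa5 did not pass, with a difference of -0.43 (95% interval -0.87 to 0.00). The count depended on single mice, since it went from 4 down to 2 without any 1 of replicates 2 and 6 of the fed or 2 and 4 of the fasted LWT mice on CTRL. Within wash batch 1 alone 0 of the 10 genes were called in this comparison, and within batch 2 alone 1 was. In this comparison 3 of 6 stellate markers were called lower, with a list median of -0.43. The summed levels of all 6 were 14.20 to 14.79 (median 14.74) in fasted against 14.16 to 14.90 (median 14.54) in fed mice. Of 4 cholangiocyte markers 2 were called lower (median summed level 8.67 against 8.86, with overlap). The part of these cells in the result was not tested.

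Whether fasting acted more strongly in LKO than in LWT mice on CTRL was tested as an interaction. None of the 10 genes passed by limma, where 3.99% of all genes did, and 4 had an unadjusted p under 0.05. The interaction was below 0 for 9 of 10 genes, with a median of -0.52. It was -1.17 for Sdf2l1 (95% interval -2.19 to -0.16, adjusted p = 0.192) and -0.55 for Calr (95% interval -0.97 to -0.13, adjusted p = 0.130). The fall called in LKO is therefore not shown to differ from that in LWT mice.

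On HFD, fasting called only Herpud1, in both genotypes. It rose by 0.57 (SE 0.16) in LWT mice, where 28.5% of all genes were called, and by 0.95 (SE 0.18, adjusted p = 9.87e-05) in LKO mice, where 28.6% were. The other 9 genes had differences between -0.21 and 0.11 in LWT mice and between -0.05 and 0.49 in LKO mice. In LKO mice on HFD the wash batches disagreed in sign for 9 of the 10 genes, with a median difference of 0.47 in batch 1 and -0.43 in batch 2. Beside these, 3 of 6 stellate markers were called lower in fasted LKO mice on HFD (list median -0.24). The summed level of all 6 had a median of 15.08 in these mice and 14.89 in the fed ones. Of 5 acinar markers 1 was higher and 1 lower, and 1 of 5 endothelial markers was higher. In LWT mice on HFD 2 of 5 endothelial markers (median -0.16) and 1 each of the stellate, cholangiocyte and Kupffer cell markers were lower, and 1 acinar marker was higher. Their part was not tested.

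**Figure D2:**
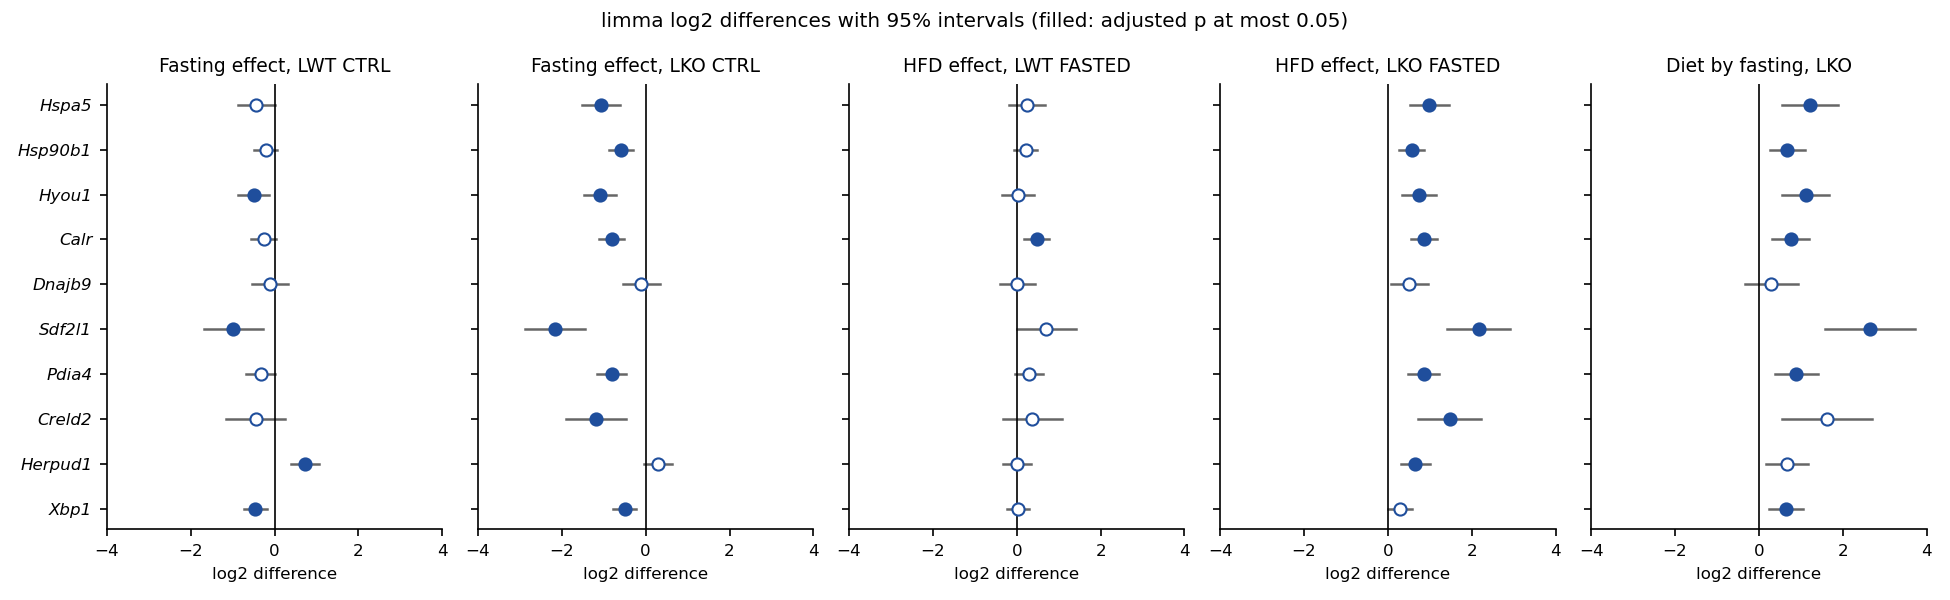
Log2 differences from limma (horizontal axis) with 95% intervals for the 10 ER genes in 5 comparisons, filled where the adjusted p is at most 0.05 and open otherwise. In LKO mice on CTRL 8 genes lie below 0 and called for fasting, and in fasted LKO mice 8 lie above 0 and called for HFD.

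HFD raised most of these genes in fasted LKO mice. Compared with fasted LKO mice on CTRL, the fasted LKO mice on HFD had higher signals of 8 of the 10 genes and lower signals of none, where 10.9% of all genes were called and 5.66% were called higher. The median difference was 0.80 over the 10 genes and -0.0009 over all genes. This comparison uses the same fasted LKO mice on CTRL as the fasting comparison above, so these results are not independent.

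Sdf2l1 again moved the most. Its signals in fasted LKO mice on HFD were 9.65, 11.28 and 11.75 (lowest, median and highest), a difference of 2.16 (SE 0.37, adjusted p = 9.34e-05) or 4.48-fold from the fasted mice on CTRL given above. Creld2 gave 13.65, 14.45 and 15.18 on HFD and differed by 1.48 (SE 0.37, adjusted p = 0.00657). Hspa5 gave 15.04, 15.74 and 16.05 on HFD and differed by 0.99 (SE 0.23, adjusted p = 0.00334). In each of these genes the HFD mice were mostly higher, and the lowest HFD mouse, replicate 3, lay within the range of the CTRL mice.

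The other called genes rose by less. Calr rose by 0.87 (SE 0.15, adjusted p = 0.000140), with signals of 13.08, 13.82 and 14.16 on HFD. Pdia4 rose by 0.86 (SE 0.18), Hyou1 by 0.74 (SE 0.20), Herpud1 by 0.66 (SE 0.17) and Hsp90b1 by 0.57 (SE 0.14). None of the 10 genes had groups that did not overlap, where 4.10% of all genes did. Dnajb9 (0.51, 95% interval 0.06 to 0.96, adjusted p = 0.143) and Xbp1 (0.28, 95% interval -0.01 to 0.57) did not pass.

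Within the wash batches the medians were 0.90 and 0.61, and the 8 called genes kept their sign in both. With 3 mice per group, 6 genes were called in batch 1 alone and 0 in batch 2 alone. The count was 8 without any 1 of the 48 arrays.

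In fasted LWT mice HFD called only Calr, which rose by 0.47 (SE 0.14, adjusted p = 0.0207), where 16.1% of all genes were called. Its signals were 13.04, 13.30 and 13.39 on CTRL and 13.44, 13.63 and 14.38 on HFD, with no overlap, where 5.86% of all genes had none. Without replicate 5 or without replicate 6 of the fasted LWT mice on HFD this call was lost. Sdf2l1 differed by 0.70 (95% interval 0.00 to 1.40) and Hspa5 by 0.25 (95% interval -0.18 to 0.68), neither called. The differences were above 0 for 10 of 10 genes, with a median of 0.23. Beside this, 3 of 6 stellate markers were called higher (list median 0.30). The stellate sum was 14.73 to 15.35 on HFD against 14.20 to 14.79 on CTRL. Of 5 endothelial markers 2 were called lower (sums of 13.47 to 14.23 against 13.51 to 14.12). Of 5 acinar markers 2 were called lower (sums of 13.23 to 13.72 against 13.36 to 14.01). The Kupffer cell sum was 14.31 to 16.04 on HFD, highest in replicate 5, against 14.00 to 14.68 on CTRL. Their part in the result was not tested.

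The effect of HFD in fasted mice was not shown to differ between genotypes. For this interaction none of the 10 genes was called by limma, where 5.07% of all genes were, although 6 had an unadjusted p under 0.05 and 10 of 10 lay above 0 with a median of 0.61. It was largest for Sdf2l1, at 1.46 (95% interval 0.43 to 2.49, adjusted p = 0.0848).

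In fed mice HFD changed few of these genes. Xbp1 fell in fed LWT mice, by 0.46 (SE 0.13, adjusted p = 0.00938), where 24.0% of all genes were called. Its signals were 14.44, 14.57 and 14.78 on CTRL and 13.99, 14.14 and 14.22 on HFD, with no overlap, where 9.51% of all genes had none. In the same comparison 3 of 6 stellate markers (list median 0.37) and 1 of 5 endothelial markers were called higher and 2 of 5 acinar markers lower (median -0.30), and their part was not tested. In fed LKO mice 0 of the 10 genes were called by limma, where 12.3% of all genes were, and 1 had an unadjusted p under 0.05. That gene was Xbp1, at -0.36 (95% interval -0.65 to -0.07, adjusted p = 0.0978). For the difference between the genotypes in fed mice 0 of 10 were called, with 0 at an unadjusted p under 0.05, where 2.95% of all genes were called.

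The dependence of the fasting response on diet was tested directly within each genotype. In LKO mice the difference between the fasting effect on HFD and that on CTRL was above 0 for 10 of 10 genes and called for 7, where 8.02% of all genes were called and 3.75% were called higher. It was 2.65 for Sdf2l1 (SE 0.53, adjusted p = 0.000896), 1.22 for Hspa5 (SE 0.33, adjusted p = 0.0153), 1.11 for Hyou1 (SE 0.28, adjusted p = 0.00950) and 0.89 for Pdia4 (SE 0.26, adjusted p = 0.0251). Calr (0.76), Hsp90b1 (0.67) and Xbp1 (0.64) were called as well. Creld2 missed the threshold at 1.63 (95% interval 0.56 to 2.70, adjusted p = 0.0501), Herpud1 was at 0.66 (adjusted p = 0.101) and Dnajb9 at 0.30 (95% interval -0.34 to 0.93). The same fasted LKO mice on CTRL enter this test too. Of 5 acinar markers 2 were called higher in this interaction, and 0 of 4 cholangiocyte, 6 stellate, 5 endothelial, 6 plasma and B cell and 7 Kupffer cell markers were called by limma. Their part in the result was not tested.

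The median interaction was 1.29 in batch 1, with 8 genes called, and 0.39 in batch 2, with 0 called; the difference between batches was not tested, and the 7 called genes kept their sign in both. The count of 7 went down to 4 without any 1 of replicate 5 of the fed LKO mice on HFD, replicate 6 of the fed LKO mice on CTRL, replicates 1 and 3 of the fasted LKO mice on CTRL and replicate 2 of the fasted LKO mice on HFD.

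In LWT mice 0 of the 10 genes were called for this interaction by limma, where 2.37% of all genes were, and 2 had an unadjusted p under 0.05. It was above 0 for 8 of 10 genes, with a median of 0.34. Sdf2l1 was at 1.05 (95% interval 0.07 to 2.04, adjusted p = 0.278) and Xbp1 at 0.49 (95% interval 0.12 to 0.87, adjusted p = 0.162). The other Xbp1 probes gave 0.65 and 0.64 and were called, so for this gene the call depends on the probe. Whether the interaction of diet with fasting differed between the genotypes was not tested.

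Herpud1 moved apart from the other genes. In LWT mice on CTRL its lowest, median and highest signals were 13.97, 14.19 and 14.46 when fed and 14.68, 14.87 and 15.06 when fasted. On HFD they were 13.81, 14.22 and 14.90 in fed and 14.61, 14.88 and 15.19 in fasted LWT mice. In LKO mice on CTRL they were 14.01, 14.48 and 14.60 when fed and 13.98, 14.73 and 15.03 when fasted, and on HFD 13.88, 14.28 and 15.09 when fed and 14.92, 15.37 and 15.56 when fasted. The median was thus higher in the fasted mice in every pair of groups, with overlap in all pairs but that of LWT on CTRL. The rise passed the test in 3 of the 4 pairs, and in LKO mice on CTRL it did not. Whether the rise differed between genotypes was not called on CTRL (-0.43, 95% interval -0.90 to 0.05) or on HFD (0.38, 95% interval -0.11 to 0.87).

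Between the genotypes, most calls were made in fasted mice on HFD. There 5 of the 10 genes were higher in LKO than in LWT mice, where 36.8% of all genes were called and 19.1% were called higher. Dnajb9 had a median of 10.46 and a highest signal of 11.43 in LWT mice, and a lowest, median and highest of 10.99, 11.29 and 11.84 in LKO mice, so the groups overlapped, and the difference was 0.77 (SE 0.22, adjusted p = 0.00557). Sdf2l1 (0.96), Creld2 (0.92), Hyou1 (0.52) and Herpud1 (0.44) had adjusted p-values between 0.0394 and 0.0489. Hspa5 was at 0.48 (95% interval 0.02 to 0.95, adjusted p = 0.0998). Markers of other cell types also differed here. Of 5 endothelial markers 4 were higher in LKO mice, with a list median of 0.41 and summed levels of 13.99 to 14.24 in LKO against 13.47 to 14.23 in LWT mice. Of 4 cholangiocyte markers tested 3 were lower, with a median of -0.38 and summed levels of 8.26 to 8.66 in LKO against 8.59 to 8.95 in LWT mice, and of 6 stellate markers 2 were lower and 1 higher. The summed acinar markers were 13.05 to 13.25 in LKO against 13.23 to 13.72 in LWT mice. The summed Kupffer cell markers were 14.28 to 15.47 in LKO against 14.31 to 16.04 in LWT mice. Of 21 cytosolic heat shock genes 9 were higher and 0 lower. Their part in the result was not tested. The count of 5 ER genes was among the least stable, running from 1 to 7 over the arrays left out 1 at a time. Without any 1 of replicates 1, 2, 3 and 4 of the LWT or 4 and 5 of the LKO mice of this comparison it was 1, without replicate 1 or 2 of these LKO mice it was 2, and without their replicate 6 it was 3. With the replicate number as a block it was 3, with Sdf2l1 (adjusted p = 0.0604) and Creld2 (adjusted p = 0.0523) no longer called.

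In each of the other states at most 1 of these genes was called between the genotypes by its brightest probe. In fed mice on CTRL 0 of 10 were called by limma, where 21.7% of all genes were, and 1 had an unadjusted p under 0.05, with 10 of 10 above 0 and a median of 0.26. Hyou1 was the 1 gene called in fed mice on HFD (0.49, SE 0.19, adjusted p = 0.0467), where 33.0% of all genes were. This call rests on the brightest probe, since the 3 other Hyou1 probes gave 0.43, 0.20 and -0.01 and none was called (adjusted p = 0.100, 0.363 and 0.977). The 2 other Xbp1 probes were called here as well, at 0.56 and 0.55 (adjusted p = 0.00111 and 0.000833), where its brightest probe was at 0.23. Calr was the 1 gene called in fasted mice on CTRL, lower in LKO (-0.38, SE 0.14, adjusted p = 0.0479), where 24.8% of all genes were. Of 4 cholangiocyte markers 3 were lower in LKO both in fasted mice on CTRL (list median -0.34) and in fed mice on HFD (-0.48). In fasted mice on CTRL 2 of 5 endothelial markers were higher and 2 of 6 stellate markers lower. Of 5 acinar markers 1 was higher and 2 lower there. The summed Kupffer cell markers in this state were 14.69 to 14.92 in LKO against 14.00 to 14.68 in LWT mice. In fed mice on HFD 1 acinar marker was higher. There 1 endothelial marker was higher and 1 lower, and 1 stellate marker was higher and 2 lower. Their part was not tested. The call of Calr was lost without any 1 of 31 arrays and with the replicate number as a block (adjusted p = 0.0585), and that of Hyou1 without any 1 of 14. For the interaction of genotype with fasting on HFD 0 of 10 genes were called, with 0 at an unadjusted p under 0.05, where 3.43% of all genes were called.

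Genes with several probes mostly gave the same picture. For the 5 genes with more than 1 probe, the other probes gave 162 values over the comparisons, of which 0 were called in the opposite direction and 17 differed in the call, 10 of these for Hyou1 and 7 for Xbp1. In LKO mice on CTRL the other Hspa5 probes fell by 1.07 and 1.06. Of the 3 other Hyou1 probes, in the same comparison, one was at -1.09, one at -0.63 and one at -0.31, the last not called (adjusted p = 0.297). Of the same 3 probes, 1 called the genotype difference in fasted mice on HFD (0.86) and 2 did not (0.44 and 0.34), and 2 did not call the dependence of fasting on diet in LKO mice (0.73 and 0.71). For HFD in fasted LKO mice 1 did not pass (0.38), nor did 1 for fasting in LWT mice on CTRL (-0.39). The other Xbp1 probes also called a higher signal in fasted LKO than in fasted LWT mice on HFD, at 0.49 and 0.45, where the brightest probe was at 0.34 and did not pass. One of them did not call the dependence of fasting on diet in LKO mice (0.56, adjusted p = 0.0722).

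Mice of the same group differed in these genes more than in most others. The median SD over the 10 genes was between 0.19 and 0.50 (log2) in the 8 groups, where the median over all genes was between 0.13 and 0.16, and at least 8 of the 10 genes exceeded the median of all genes in every group. The deviations ran in the same direction within a mouse. In fasted LWT mice on HFD, replicates 5 and 6 were above the group mean for 10 of 10 genes, by 0.56 and 0.74 on average, and each of the other 4 mice was above it for at most 1. Replicate 6 of the fed LKO mice on HFD was above its group mean for 10 of 10 genes, by 0.92, and replicate 3 of that group was below it for 10 of 10, at -0.44, and had the lowest array weight (0.35). Replicate 3 of the fasted LKO mice on HFD was above its mean for 1 of 10 genes, at -0.62. Markers of other cell types were summed for the same mice. In fasted LWT mice on HFD, replicates 6 and 5 had the highest and next highest endothelial sums (14.23 and 13.93), and the Kupffer cell sum was highest in replicate 5 (16.04) and ranked 4 of 6 in replicate 6 (14.53). Replicates 5 and 6 also had the lowest stellate sums of that group (14.73 and 15.08). Replicate 6 of the fed LKO mice on HFD had the highest acinar (13.77), cholangiocyte (8.80) and hepatocyte (20.68) sums of its group and ranked 5 of 6 for Kupffer cells (14.61). Replicate 3 of the same group had the highest Kupffer cell (15.51) and plasma and B cell (9.87) sums and the lowest acinar sum (13.21). Replicate 3 of the fasted LKO mice on HFD ranked 2 of 6 for stellate (15.13), 3 of 6 for endothelial (14.22) and acinar (13.23), 4 of 6 for cholangiocyte (8.56) and for plasma and B cell sums, and 5 of 6 for hepatocyte (20.68) and Kupffer cell (14.58) sums. Their part in the deviations was not tested.

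**Figure D3:**
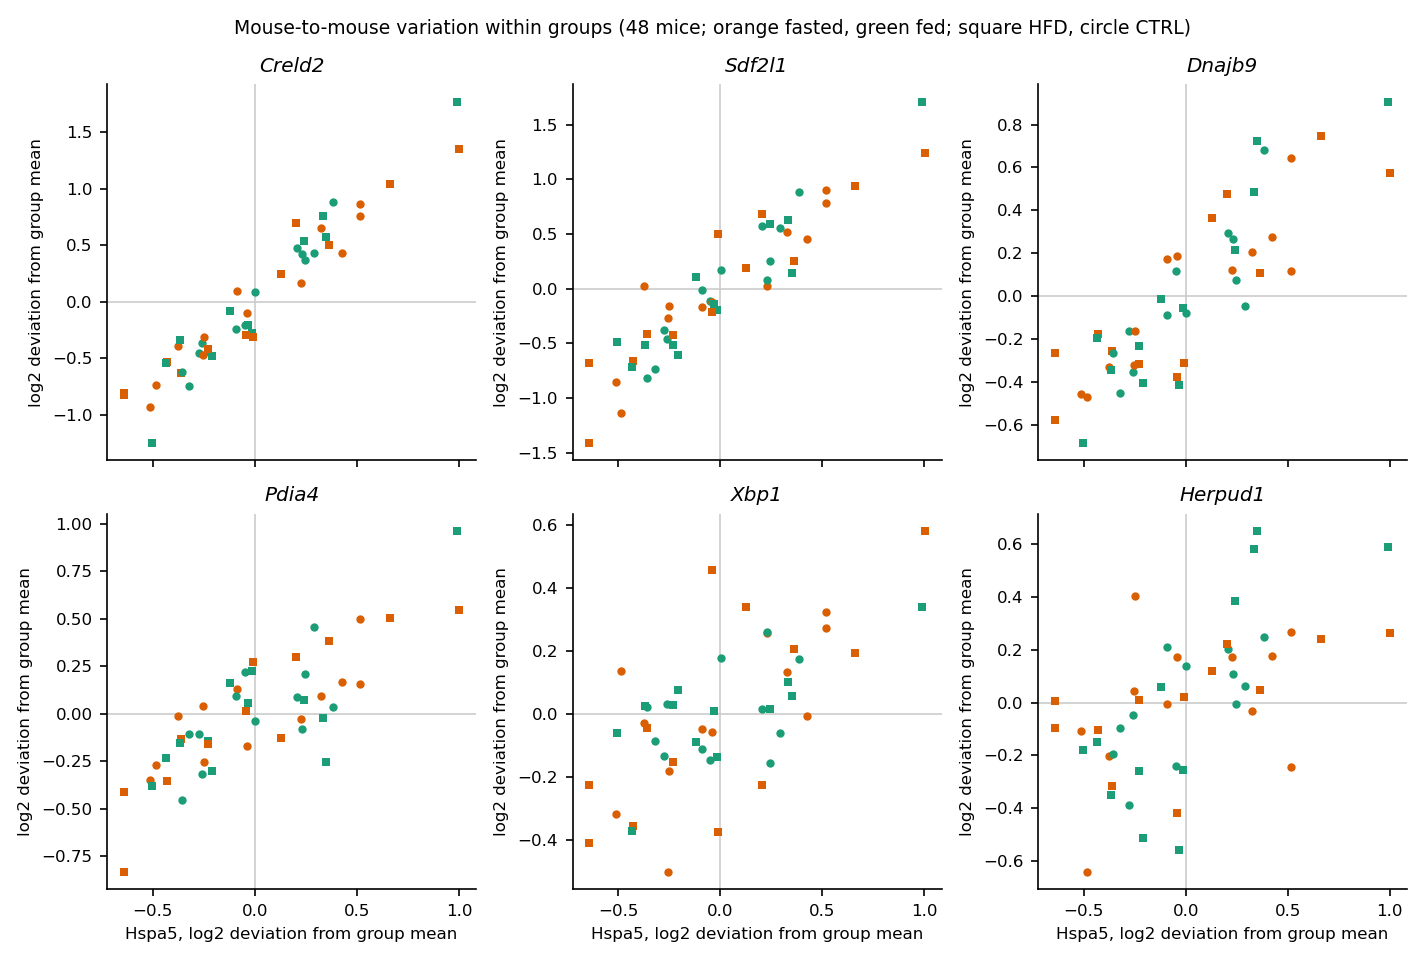
Deviation of 6 ER genes from their group mean (vertical axis, log2) against the deviation of Hspa5 (horizontal axis, log2), 1 point per mouse, 48 mice. Pearson's r is 0.96 for Creld2, 0.93 for Sdf2l1, 0.86 for Dnajb9, 0.81 for Pdia4, 0.65 for Xbp1 and 0.59 for Herpud1.

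With the group means removed, all 9 other genes followed Hspa5 across the 48 mice. Pearson's r was 0.96 for Creld2 (Spearman's rho 0.95), 0.93 for Sdf2l1 (rho 0.91) and 0.93 for Hsp90b1 (rho 0.91). It was 0.86 for Dnajb9 (rho 0.83), 0.81 for Pdia4 (rho 0.76), 0.80 for Hyou1 (rho 0.82) and 0.76 for Calr (rho 0.69). Xbp1 (r = 0.65, rho 0.60) and Herpud1 (r = 0.59, rho 0.61) followed it least closely. The permutation p within groups was 1e-05 for r, the smallest that 100000 draws can give, for all but Herpud1 (7e-05), and at most 7e-05 for rho. The same relation was tested for 20457 genes, with 10000 draws and adjustment over all of them. The adjusted p was 0.00882 for each of the 9 genes, the smallest reached, where 3.28% of all genes passed, 1.91% with a positive r, and 0.870% had an r at least as high as that of Herpud1. Without the 2 mice farthest from the median Hspa5 deviation r lay between 0.53 for Herpud1 and 0.95 for Creld2. Within wash batches 1 and 2, of 24 mice each, r was 0.52 and 0.65 for Herpud1 and 0.96 and 0.97 for Creld2. Dnajb9, which passed no fasting test, followed Hspa5 in fed (r = 0.89) and in fasted mice (r = 0.86). Over all 45 pairs of the 10 genes r had a median of 0.74 and ran from 0.15 to 0.96. Values from one array share its RNA and its normalization.

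The genes whose pattern was most like the mean of the 10, over the 48 arrays, were found among the non-member genes by Pearson's r, as a description. They were the BiP cofactor Dnajb11 (0.96), the ER-resident secreted factor Manf (0.95), the ubiquitin ligase Syvn1 (0.94), the disulphide isomerase Pdia3 (0.92), the ligase partner Sel1l (0.92), the mannosidase-like Edem1 (0.89), Ccdc134 (0.89), Cdk2ap2 (0.87), the J-domain protein Dnajc3 (0.87) and the mannosyltransferase Alg12 (0.87). With group means removed, Dnajb11 (0.97), Manf (0.96), Syvn1 (0.95) and Sel1l (0.94) led again, and Slc35b1, Slc17a9 and Tmed3 entered the first 10 in place of Edem1, Ccdc134 and Alg12. Of the 10 genes, Herpud1 was least like their mean over the 48 arrays (0.40), and it reached 0.64 with group means removed.

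Other genes of ER protein folding moved in the same comparisons. In LKO mice on CTRL, fasting lowered 21 and raised 1 of the 28 other folding factors tested, with Manf (-1.57), the disulphide isomerase Pdia6 (-1.26) and Dnajb11 (-1.05) changing most. It lowered 23 and raised 0 of 29 genes of the translocon and signal peptide processing, among them the channel subunits Sec61b (-0.99) and Sec61g (-0.88). It lowered 10 and raised 1 of 23 genes of ER-associated degradation, led by Derl3 (-1.69), Syvn1 (-0.85) and Derl2 (-0.71), and lowered 16 and raised 5 of 29 genes of COPII transport and retrieval, led by the cargo receptor Tmed3 (-1.38). The list medians were -0.43, -0.41, -0.15 and -0.23, against -0.0012 over all genes. The shares called were 78.6%, 79.3%, 47.8% and 72.4%, where 35.6% of all genes were called and 19.2% were called lower. In LWT mice on CTRL, where 32.6% of all genes were called and 16.6% were called lower, fasting lowered 12 and raised 1 of the folding factors, lowered 17 and raised 0 of the translocon genes, lowered 5 and raised 2 of the degradation genes, and lowered 14 and raised 5 of the COPII genes.

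Lists outside the folding machinery held calls in both directions, with shares called of 50% for sensors and regulators, 47.4% for the PERK and ATF4 branch and 28.6% for cytosolic heat shock genes, against the same 35.6% of all genes. Of 18 sensors and regulators of the response 6 fell, the IRE1 gene Ern1 (-0.90) and Wfs1 (-0.72) foremost, and 3 rose, among them Creb3l3 (0.50), a liver transcription factor of the ER membrane. Of 19 genes of the PERK and ATF4 branch 5 rose and 4 fell, with Cebpb at 1.03, Nupr1 at -0.87 and Ddit3, which encodes CHOP, at -0.67. Of 21 cytosolic heat shock genes 4 fell and 2 rose, with the cochaperone Fkbp4 at -0.83 and the small heat shock protein Hspb8 at 0.63. In LWT mice on CTRL 5 sensors and regulators fell and 2 rose, 6 genes of the PERK and ATF4 branch rose and 2 fell, and 7 heat shock genes fell and 1 rose.

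With HFD in fasted LKO mice, where 10.9% of all genes were called and 5.66% were called higher, 15 of the 28 other folding factors rose and 0 fell, led by Manf (1.38), Pdia6 (0.95) and Dnajb11 (0.85). Of the 29 translocon genes 13 rose and 0 fell, with Sec61b at 0.49, and of the 23 degradation genes 7 rose and 1 fell, with Derl3 at 2.96. The 19 genes of the PERK and ATF4 branch held 6 that rose and 1 that fell, among them the glutathione-degrading enzyme Chac1 (1.73), the lipoprotein receptor Vldlr (1.32) and Ddit3 (0.84). Of the 18 sensors and regulators 4 rose and 2 fell, with Eif2ak3, which encodes PERK, at 0.48, and of the 29 COPII genes 5 rose and 0 fell. Cytosolic heat shock genes gave 0 calls of 21 by limma in this comparison. In fasted LWT mice, where 16.1% of all genes were called, HFD raised 0 and lowered 1 of the 28 folding factors and did the same for the 23 degradation genes. It raised 4 and lowered 0 of the 29 translocon genes, raised 5 and lowered 2 of the 29 COPII genes, and raised 5 and lowered 0 of the 19 genes of the PERK and ATF4 branch. Of the 18 sensors and regulators 5 rose and 1 fell there, and the share called was 33.3% in both genotypes.

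**Figure D4:**
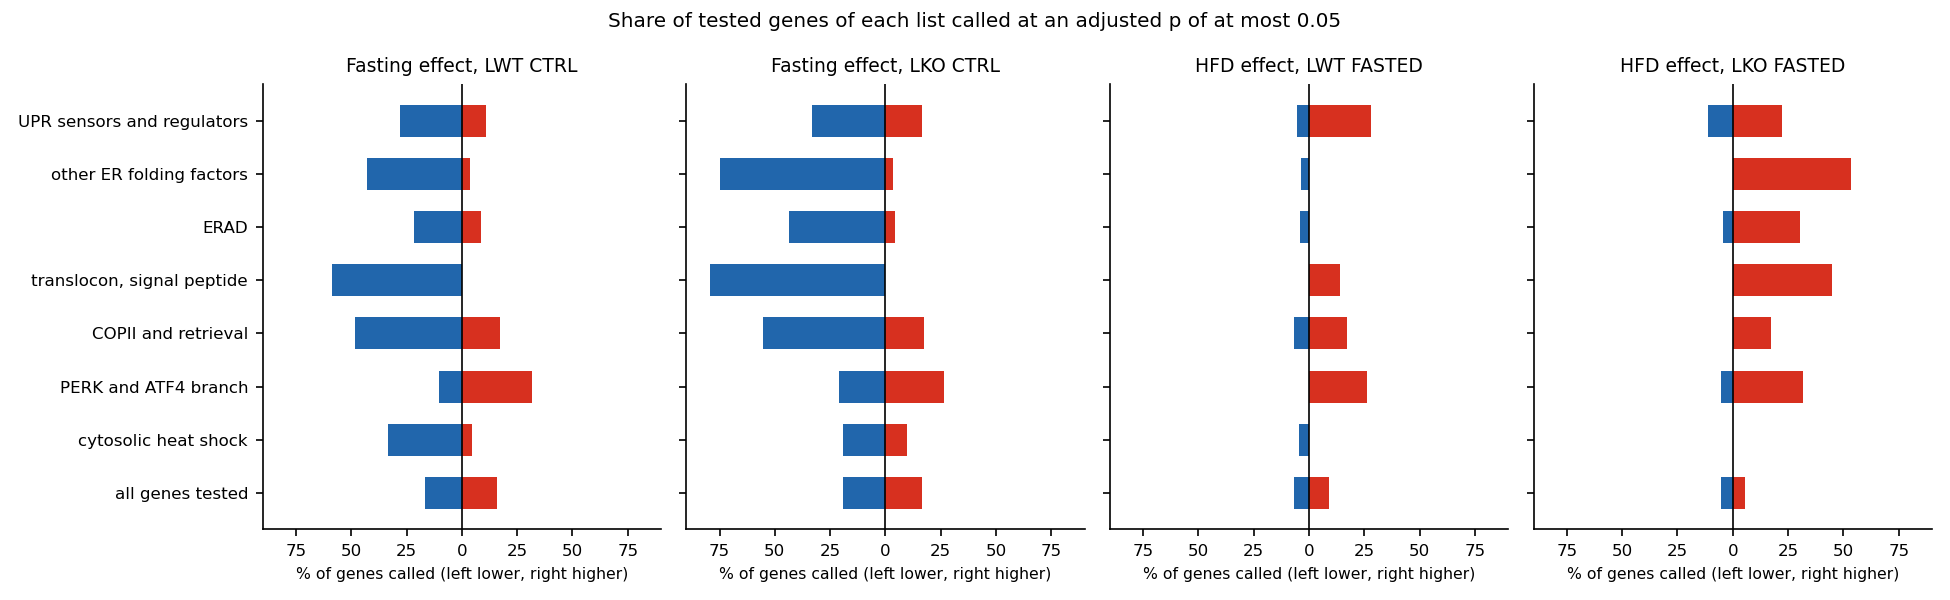
Percent of the tested genes of 7 lists and of all genes (vertical axis) called lower (bars to the left) or higher (bars to the right) in 4 comparisons (horizontal axis, percent). Other ER folding factors and the translocon list reach furthest to the left for fasting in LKO mice on CTRL, with 21 of 28 and 23 of 29 genes called lower.

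Beyond the 4 genes above, ERSE was found in the promoters of 31 further genes, of which 16 were tested. Fasting in LKO mice on CTRL lowered 9 and raised 1 of these, with a median of -0.34, where 35.6% of all genes were called and 19.2% were called lower. HFD in fasted LKO mice raised 6 and lowered 1, with a median of 0.14, where 10.9% of all genes were called and 5.66% were called higher. Derl3, Pdia6, Syvn1, Dnajc3, Alg12 and Canx, which encodes calnexin, were called in both comparisons, lower with fasting and higher with HFD. Acacb was called lower in both, at -0.98 and -1.63. These genes were picked out after their values were seen. Of the 16 genes, fasting raised 3 and lowered 5 in LWT mice on CTRL, where 32.6% of all genes were called. On HFD it raised 5 and lowered 3 in LWT mice, where 28.5% of all genes were called.

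Signals of other cell types were checked beside the main result, since secretory cells other than hepatocytes are rich in these chaperones. The summed hepatocyte markers lay between 20.56 and 20.75 in fed LKO mice on CTRL and between 20.61 and 20.75 in fasted ones. The summed pancreatic acinar markers were lower in the fasted mice, at 12.73 to 13.26 against 13.47 to 13.78 in fed LKO mice on CTRL. This sum mostly reflects the brightest of them, Cela1, at 12.15 to 14.11 (log2) over the 48 arrays. The next, Amy2a5, ran from 10.27 to 11.67. Of the 5 tested acinar markers 2 were called lower, where 35.6% of all genes were called. Of the 9 acinar markers, Cpa1 and Cpb1 were well above background on 0 of 48 arrays, Pnlip on 1 and Prss1 on 2. The summed plasma and B cell markers ranged from 9.16 to 11.80 in fed and from 9.44 to 9.99 in fasted LKO mice on CTRL, with 0 of 6 called and Tnfrsf17 well above background on 0 arrays. Of 4 cholangiocyte markers tested 2 were called lower in the fasted LKO mice on CTRL, Krt19 and Krt7, with summed levels of 8.14 to 8.49 in fasted against 8.46 to 8.89 in fed mice. Of 6 stellate markers 2 were called lower, Col1a1 and Col3a1, with a list median of -0.20 and summed levels of 14.59 to 14.92 in fasted against 14.63 to 15.23 in fed mice. Of 5 endothelial markers Lyve1 was called higher, and 0 of 7 Kupffer cell markers were called by limma. In fasted LKO mice on HFD the acinar sum was 13.05 to 13.25, with a median of 13.205 against 13.043 in the fasted mice on CTRL. There 2 of the 5 tested acinar markers, Cela2a and Amy2a5, were called higher. The stellate marker Rgs5 (0.82) and the endothelial marker Stab2 (0.28) were called higher there too. The part of these cells in the results was not tested.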

How the data were processed

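Liver RNA (200 ng per mouse) was made into labelled cRNA, which the authors hybridised to 1-colour Agilent 8x60K mouse arrays, and the deposited scanner files hold spot intensity from Agilent Feature Extraction 10.10.1.1, which the submitters' processing notes name together with limma. The deposited series table holds the authors' log2 values and served as an alternative. By their methods, the authors filtered the median intensity, took log2, removed the effect of the wash and applied quantile normalization. The criterion of their filter is not given in the sources used here.

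The median intensity was taken as log2, control spots and outlier spots were left out, and replicate spots were averaged. Of 56605 probes, 30793 passed the filter, which asked for a signal well above background in 5 or more of the 6 mice of any group. Wash batch was removed with group means protected, followed by quantile normalization. In R 4.3.3, limma 3.58.1 fitted 8 group means with array weights, so that differences depart from those of plain means. For HFD in fasted LWT mice Sdf2l1 differed by 0.70 in the fit, with plain means of 10.27 on HFD and 9.35 on CTRL. Replicates 5 and 6 of the fasted LWT mice on HFD had weights of 0.84 and 0.76. There were 18 contrasts, with Benjamini-Hochberg adjustment over all probes kept. A gene was read from its brightest probe, and the rule named all 10 genes, up to 3 called genes of each list with the largest change, and the 10 genes most like their mean. Intervals cover 95%. Precision was limited by the number of mice.

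Alternatives changed the intensity used, filter, scaling, weights, probe, blocks and wash batch, and left out each array. The replicate numbers did not pair the mice, with a mean correlation of 0.018 between mice of the same number in different groups. The genes and lists were chosen with earlier results of these data known.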

Additional observations from a re-analysis of the deposited data

Results flagged for a closer look

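A single mouse stood apart from the other 5 of its group in 5 of the 80 sets of 6 values examined by Dixon's criterion, and chance alone gives about 1 in 20. Replicate 6 of the fed LKO mice on HFD was high for Sdf2l1 (12.27, next 10.71), Hsp90b1 (16.10, next 15.37) and Pdia4 (12.26, next 11.36). Replicate 3 of the fasted LKO mice on HFD was low for Hsp90b1 (14.90, next 15.50), and replicate 6 of that group was low for Herpud1 (14.92, next 15.35).

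The effect of fasting differed between diets in LKO mice by limma's interaction test for 7 genes. The difference was 2.65 (log2) for Sdf2l1, 1.22 for Hspa5, 1.11 for Hyou1, 0.89 for Pdia4, 0.76 for Calr, 0.67 for Hsp90b1 and 0.64 for Xbp1.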

How the results depend on the processing

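The counts of called genes out of 10 were recomputed under 16 alternatives and without each array in turn. Fasting in LKO mice on CTRL gave 8 called genes, and HFD in fasted LKO mice gave 8. Each was within 1.5 times of 8 under 15 of 16 alternatives. In wash batch 2 alone the counts were 4 and 0, and they were 0 for diet by fasting in LKO (7 otherwise), 1 for fasting in LWT on CTRL and 0 for fasting in LWT and LKO on HFD. Wash batch 2 alone also gave 0 for HFD in fed and fasted LWT mice and for genotype in fasted mice on CTRL, fed mice on HFD and fasted mice on HFD. Wash batch 1 alone gave 0 for both fasting effects in LWT, for HFD in fed and fasted LWT and for genotype in fed mice on HFD, and 1 for HFD in fed LKO and genotype in fasted mice on HFD. Each batch alone has 3 mice per group.

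Genotype in fasted mice on CTRL gave 0 in place of 1 with the deposited log2 values, a fold change over 1.5, median scaling, no array weights, no filter, only the groups compared, the replicate block, the slide block, wash batch as a term and wash batch not removed. Genotype in fed mice on HFD gave 0 in place of 1 with a fold over 1.5, no weights, no filter, the slide block, wash batch as a term and wash batch not removed. Genotype in fasted mice on HFD gave 3 in place of 5 with a fold over 1.5 and with the replicate block, 2 with only the groups compared, and 1 with no weights, no filter, the slide block and wash batch not removed. Diet by fasting in LKO gave 4 in place of 7 with no filter and with wash batch not removed, and 3 with only the groups compared. With a fold over 1.5, fasting in LWT gave 2 on CTRL and 0 on HFD, and HFD in LWT gave 0 in fed and fasted mice. Median scaling gave 2 for HFD in fed LWT, 1 for HFD in fed LKO and 1 for genotype in fed mice on CTRL. The processed signal gave 1 for HFD in fed LKO. Only the groups compared gave 2 for HFD in fed LWT and 1 for genotype by diet in fasted mice. The median over probes gave 1 for diet by fasting in LWT.

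Without 1 array the counts ran from 2 to 4 (fasting, LWT CTRL), 8 to 8 (fasting, LKO CTRL), 1 to 1 (fasting on HFD, either genotype), 1 to 2 (HFD, LWT FED), 0 to 1 (HFD, LWT FASTED and LKO FED), 8 to 8 (HFD, LKO FASTED), 0 to 0 (genotype, CTRL FED), 0 to 1 (genotype, CTRL FASTED and HFD FED), 1 to 7 (genotype, HFD FASTED), 0 to 2 (genotype by diet, FASTED), 4 to 9 (diet by fasting, LKO) and 0 to 0 (the other interactions). The count for HFD in fed LKO became 1 without replicate 6 of the HFD mice. That for genotype by diet in fasted mice became 2 without replicate 6 of LWT on HFD, and 1 without replicate 5 of that group, replicate 4 of LKO on CTRL or replicate 3 of LKO on HFD. That for HFD in fed LWT became 2 without replicate 4 of either LWT FED group, replicate 6 of LWT_HFD_FASTED, replicate 6 of LKO_HFD_FED or replicate 2 of LKO_CTRL_FED.

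With the replicate number as a block, Xbp1 lost its call for diet by fasting in LKO (adjusted p = 0.0505), besides the losses given with the results, and no other call of the 10 genes changed. Over 11520 values of single genes, 0 called values changed sign, and 292 changed sign with no call in either setting. Under 6 alternatives the lowest r of the 9 relations to Hspa5 lay between 0.58 and 0.62. Whole liver arrays limit these values, as Hyou1 is dim, its probes differ in calls, and protein and Xbp1 splicing were not measured. The cause of the changes between settings was not tested.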
